A study of Mus musculus with 2 samples.

Results

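Neurons with high counts of the chemokine gene Cxcl14 and of at least 2 of the genes Sp9, Rprml, Lamb3 and Aldh3b2 made up 114 of the 8072 neurons in 2 single-cell RNA libraries of the mouse preoptic area. They were chosen by measured values. A neuron was a cell barcode with at least 2000 genes, under 20% mitochondrial transcripts, at least 10 transcripts of the neuronal genes Snap25 and Syt1 together and at most 1 of the oligodendrocyte genes Mog and Ermn. Within the neurons, a member had at least 5 transcripts of Cxcl14, at most 5 of Gnrh1, and at least 1 transcript of 2 or more of the other 4 genes. Transcripts were counted by unique molecular identifiers (UMIs), so each count is of tagged RNA molecules.

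The SD+RS library came from C57BL/6J mice that were deprived of sleep for 6 h and then left to sleep for 2 h, and the SD library from C57BL/6J mice taken right after 6 h of sleep deprivation. Both were made from preoptic tissue of mice aged 9 to 10 weeks, with males and females pooled, by Act-seq, a dissociation method that blocks new transcription, and 10x Genomics droplets. The study asked which preoptic neurons are active during rebound sleep. How many mice were pooled for a library is not known here, and with 1 library per group no test between the libraries was possible. All intervals below are 95% intervals and cover counting error only.

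CXCL14 is a secreted chemokine that in the brain is made by some GABA interneurons and by astrocytes. SP9 is a zinc finger transcription factor needed for the formation of several kinds of GABA neuron in the developing forebrain. Rprml encodes a relative of the growth arrest protein Reprimo, Lamb3 a chain of the basement membrane protein laminin, and Aldh3b2 an aldehyde dehydrogenase that acts on lipid aldehydes. The preoptic area, at the front of the hypothalamus, holds GABA and glutamate neurons that take part in sleep, body temperature and social behaviour.

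The members numbered 58 of 4149 neurons in the SD+RS library (1.40%, interval 1.06% to 1.80%) and 56 of 3923 in the SD library (1.43%, interval 1.08% to 1.85%). Over all cells, the shares differed by less than their counting error. Median depth was close, with 20702.5 UMIs per SD+RS member and 22127.5 per SD member, against 21822 and 22255 per other neuron. The 2 libraries shared 23 barcodes, 0.284% of the SD+RS barcodes and 0.224% of the SD barcodes. No member shared a barcode with a member of the other library.

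The values used by the rule are given as a description. Cxcl14 (mm10, chromosome 13, 56288643 to 56296551, minus strand) had 5 to 45 UMIs per SD+RS member, with a median of 8, and 5 to 37 per SD member, with a median of 9. Rprml (chromosome 11, 103649570 to 103650579) was found in 54 of 58 SD+RS members and 53 of 56 SD members. Aldh3b2 (chromosome 19, 3972328 to 3981646) was found in 43 and 44 members. Sp9 (chromosome 2, 73271925 to 73284706) was found in 38 SD+RS and 32 SD members. Lamb3 (chromosome 1, 193207699 to 193343878) was found in 21 and 23. Rprml was therefore the gene most often met beside Cxcl14, and most members carried no Lamb3 UMI. Of the 4 genes beside Cxcl14, 2 were found in 27 SD+RS and 25 SD members, 3 in 22 members of each library, and all 4 in 9 members of each.

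The threshold cut through a continuous range of counts. There were 21 SD+RS and 10 SD members with 5 or 6 Cxcl14 UMIs, and 27 SD+RS and 25 SD neurons with 3 or 4 UMIs that met the other conditions. The members just inside had 66.4 and 85.0 CPM (UMIs of a gene scaled to 1e+06 UMIs of its group) of Sp9 in the SD+RS and SD libraries, and the neurons just outside had 41.1 and 41.0 CPM. Nrgn, a gene outside the rule, stood at 2578 and 2333 CPM just inside and at 2249 and 1728 CPM just outside. Of the neurons with at least 5 Cxcl14 UMIs, 93 in the SD+RS and 92 in the SD library, the Gnrh1 limit set aside 5 and 7, and the condition on the other 4 genes set aside 30 and 29.

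**Figure D1:**
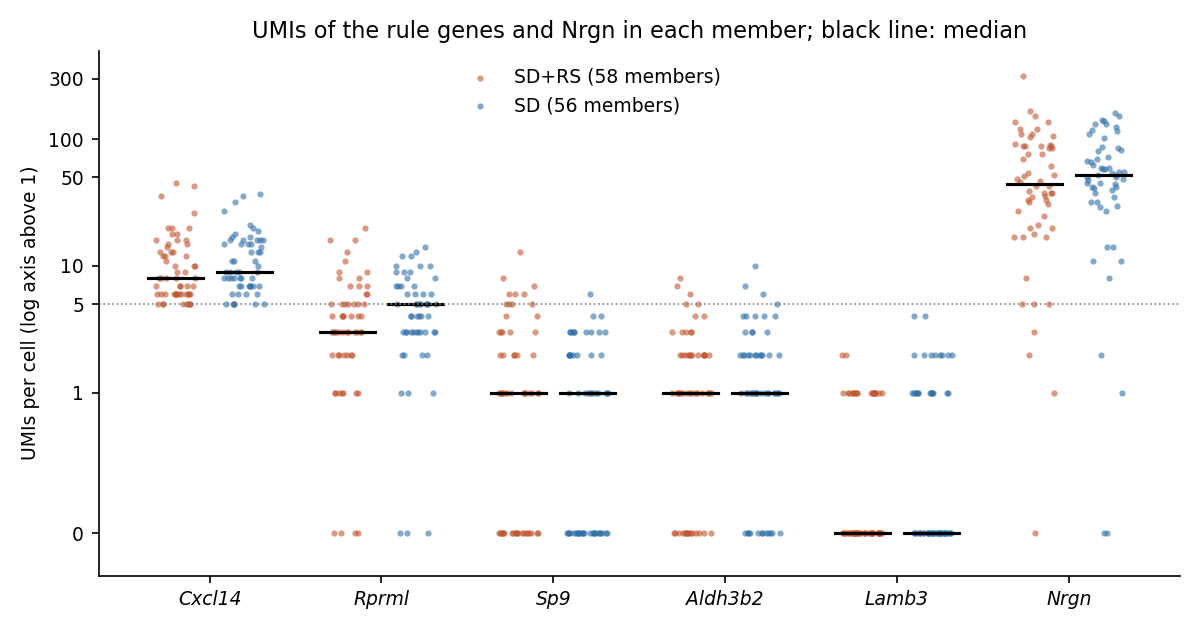
UMIs per member (log axis above 1) of the 5 genes of the rule and of Nrgn, with the 58 SD+RS members left of the 56 SD members for each gene. Each point is 1 cell, black lines are medians and the dotted line is the Cxcl14 minimum of 5 UMIs. Cxcl14 reaches 45 UMIs in SD+RS and 37 in SD, most members have no Lamb3 UMI, and Nrgn has medians of 44.5 UMIs in SD+RS and 52 in SD.

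Cxcl14 is also an astrocyte gene, and astrocyte RNA was measured beside it. The members held 504 CPM of Cxcl14 in the SD+RS library and 532 CPM in the SD library, and the other neurons 10.8 and 13.4 CPM. Barcodes with astrocyte genes and few neuronal UMIs held 351 and 363 CPM, and 67.5% and 72.9% of them had a Cxcl14 UMI. The 10 astrocyte markers summed to 324 CPM in SD+RS members and 435 CPM in SD members, against 382 and 423 CPM in the other neurons, and against 17128 and 16298 CPM in the astrocyte-type barcodes. The sum was lower in members than in other neurons in the SD+RS library and close to them in SD. Of the 5 measured markers, however, Slc1a3 and Slc4a4 were each more than 2-fold higher in members in both libraries and 0 lower. Over all measured genes, 1.31% were higher and 0.637% lower. The median log2 ratio of the 5 was 1.13 in SD+RS and 0.86 in SD. Against the other neurons of the same clusters (below), 0 of 6 measured markers were past 2-fold. Of the members' astrocyte UMIs, 191 of 428 in SD+RS and 270 of 559 in SD came from 3 SD+RS and 4 SD members in a cluster led by astrocyte genes, with 2770 and 2758 CPM. The remaining 55 and 52 members had 189 and 244 CPM of astrocyte markers and 509 and 535 CPM of Cxcl14. The rule asks for at least 5 Cxcl14 UMIs in every member, so it sets the Cxcl14 level of any part of them. Where the Cxcl14 RNA came from was not tested. None of the 10 markers was at 0 in the members, while 6 SD+RS and 3 SD members had no UMI of any. The glutamate transporter gene Slc1a3 was found in 10.3% of SD+RS and 16.1% of SD members, at 29.5 and 51.4 CPM against 13.8 and 24.5 CPM in the other neurons. Marker sums of other cells were also read: 10 microglia markers gave 14.4 and 17.1 CPM in SD+RS and SD members against 44.2 and 55.9 CPM in the other neurons. The 10 endothelial and mural markers gave 158 CPM in SD+RS members and 10.1 CPM in SD members, against 59.4 and 91.5 CPM in the other neurons. The SD+RS members include 1 cell of a cluster with endothelial genes (c36, below). Of Itm2a, the 1 measured gene of this list, 26 of the 45 SD+RS UMIs were in 1 member.

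Most members had the genes of GABA neurons. At least 2 UMIs of Slc32a1, Gad1 and Gad2 (the vesicular GABA transporter and the GABA-making enzymes), with fewer than 2 of the vesicular glutamate transporters Slc17a6, Slc17a7 and Slc17a8, were found in 46 of 58 SD+RS members (79.3%, interval 66.6% to 88.8%). In the SD library 42 of 56 members were of this kind (interval 61.6% to 85.6%). Of the other neurons, 71.8% and 71.7% were of this kind, inside both intervals. Only glutamate transporters were found in 9 SD+RS and 13 SD members (15.5% and 23.2%, against 14.3% and 13.4% of the other neurons). The intervals of these shares, 7.35% to 27.4% in SD+RS and 13.0% to 36.4% in SD, hold the values of the other neurons. Cells with at least 2 UMIs of each kind were fewer among members, 2 in SD+RS (3.45%, interval 0.420% to 11.9%) and 1 in SD (1.79%, interval 0.0452% to 9.55%), against 13.0% and 13.6% of the other neurons. The members were therefore GABA or glutamate neurons in shares near those of the other neurons, with fewer cells of both kinds at once.

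The sex of the mouse a member came from nearly coincided with its library. Cells were called by Xist, made from the inactive X chromosome of females, against the Y-linked genes Ddx3y, Uty, Kdm5d and Eif2s3y. In the SD+RS library 52 of 58 members had Xist UMIs only and 2 had Y-linked UMIs only, while in the SD library 9 of 56 had Xist UMIs only and 40 Y-linked UMIs only. The other neurons had Xist UMIs only in 73.9% of SD+RS and 34.8% of SD cells. Among neurons with Xist UMIs only, members made up 1.69% (1.27% to 2.21%) in SD+RS and 0.665% (0.304% to 1.26%) in SD. Among those with Y-linked UMIs only, they made up 0.235% (0.0285% to 0.847%) in SD+RS and 1.92% (1.37% to 2.60%) in SD. Within each sex call the shares thus differed beyond counting error, in opposite directions. In every comparison of the libraries below, sleep state and sex of the source mice cannot be told apart.

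The members did not form a cell type of their own. When all neurons were clustered on 2000 variable genes, with activity, stress, clock and sex genes left out, they were spread over 15 of 45 clusters, and the 4 clusters with at least 10 members held 85 of them. In no cluster did they reach more than 13.1% of the cells. The label of a Cxcl14, Sp9 and Rprml neuron type thus goes against the data, and the cells are called Cxcl14-high neurons or members here.

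The largest group, 17 SD+RS and 15 SD members, lay in cluster c9 (245 cells, led by Scgn, Lamb3, Sp9 and Aldh3b2). Cluster c11 (240 cells, led by Meis2, Adamtsl2, Ptk2b and Bcl11b) held 8 and 11 members. Cluster c8 (261 cells, led by Sp9, Ramp3 and Plagl1) held 12 and 6. All 3 had GABA genes. Cluster c25 (157 cells, led by Otp, Sim1 and Unc13c) held 7 and 9 members and had the glutamate transporter gene Slc17a6 in 16 of 16 members and no UMI of Sp9 in any. Of the rest, 3 SD+RS and 4 SD members lay in cluster c13, led by the astrocyte genes Etnppl, Slc1a3 and Gja1, and all 7 were marked as doublets, that is, as likely mixtures of 2 cells. Another 3 and 4 lay in c19, a second cluster with Otp, and 3 and 3 in c6, led by Gbx1 and Npr3. Cluster c33 held 2 SD members, and 7 clusters held 1 member each.

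**Figure D2:**
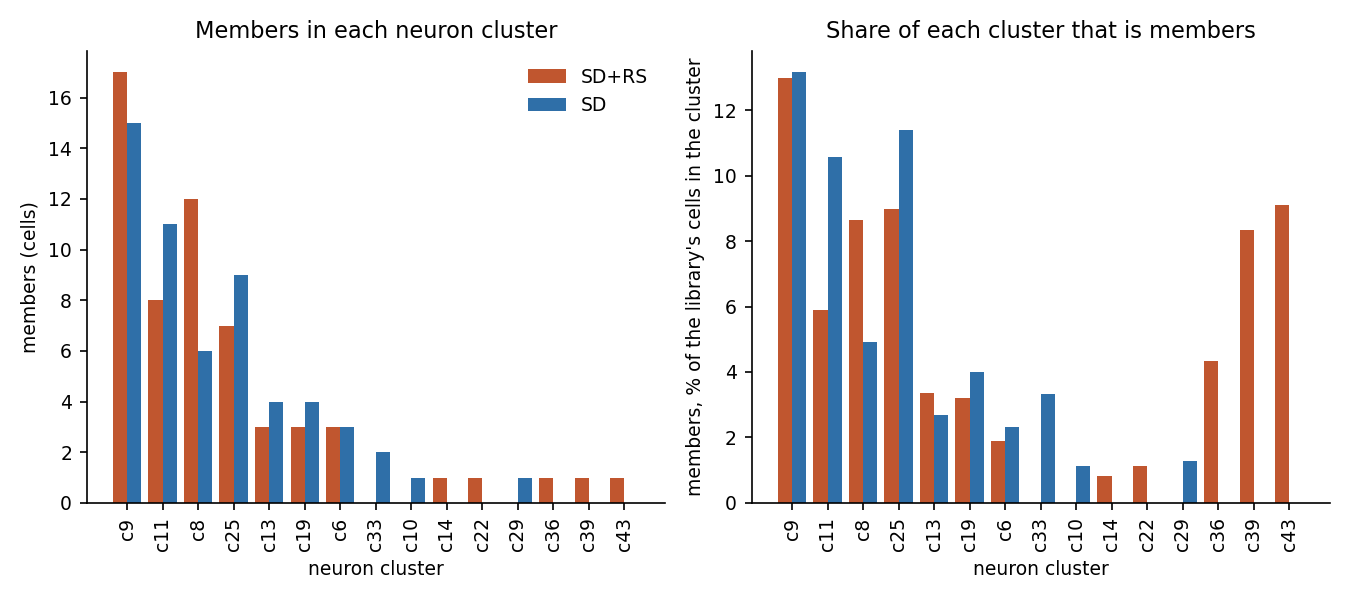
Number of members (left) and their percentage of each library's cells (right) in the 15 neuron clusters that hold any, with SD+RS bars left of SD bars. The clusters c9, c11, c8 and c25 hold 85 of 114 members, and no cluster is mostly members.

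Cluster c9 was split by galanin, a neuropeptide made by many preoptic GABA neurons. Gal was found in 6 of 32 members of c9, at 2.79 CPM in SD+RS and 66.0 CPM in SD members. Among the other neurons of c9 it was found in 112 of 213, at 1881 and 5474 CPM. Tac2, the neurokinin B gene, was found in 5 of 32 members and 52 of 213 other cells. Meis2, a homeobox transcription factor gene, had 0 UMIs in the 32 members, which allows up to 5.34 CPM, against 50.2 CPM in SD+RS and 118 CPM in SD among the other cells. The members of c9 were higher in Mef2c, a transcription factor gene, with 534 and 399 CPM against 116 and 97.0 CPM. Arpp21, the gene of a phosphoprotein regulated by cyclic AMP, stood at 347 and 174 CPM in members against 57.8 and 49.6 CPM. Nrgn, which encodes the postsynaptic calmodulin-binding protein neurogranin, was at 3840 and 4406 CPM against 2446 and 2062 CPM.

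In the other large host clusters the contrast differed by gene. In c8 the members had 1959 and 2214 CPM of Nrgn in SD+RS and SD, against 1098 and 919 CPM in the other cells. Mef2c there was at 237 and 234 CPM against 65.5 and 79.8 CPM, and the enkephalin gene Penk at 303 and 117 CPM against 39.9 and 33.8 CPM. In c11 the members had 2792 and 2697 CPM of Nrgn, against 2710 and 2415 CPM in the other cells, a log2 ratio of 0.08 with an interval from −0.01 to 0.17. Calb2, the calretinin gene, was lower in the c11 members, at 28.3 and 124 CPM against 378 and 650 CPM. Neither Penk nor Calb2 kept the same direction over the host clusters. Calb2 was lower in members of c9 and c6 too, but higher in c8, c25 and c19, with log2 ratios of 1.01, 0.85 and 1.41. Penk was higher in members of c6 too, but lower in c9, c11 and c25, with log2 ratios of −1.17, −1.40 and −3.02. In the glutamate cluster c25, members had 3830 and 1986 CPM of Nrgn against 977 and 579 CPM in the other cells. Aldh3b2, a gene of the rule, was at 139 and 121 CPM against 19.7 and 23.5 CPM there. Gad2 was found in 2 of 16 members and 88 of 141 other cells of c25. In c19, Nrgn was low in members too, at 113 CPM over both libraries, against 63.4 CPM in the other cells. Of the 4 large host clusters, Nrgn was thus higher in members than in the cells around them in c9, c8 and c25 by more than counting error, and not in c11.

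Against all other neurons, 97 of 7384 genes (1.31%) were more than 2-fold higher in members in both libraries and 47 (0.637%) more than 2-fold lower. These are genes with at least 50 UMIs measured or expected in the members of both libraries together, the genes of the rule among them. The median log2 ratio over all 7384 genes was 0.04 in SD+RS and 0.02 in SD. Since members gather in a few clusters, they were also set against the cells of those clusters alone. Against the other neurons of the same clusters, weighted as the members are, 26 of 7330 genes (0.355%) were higher and 18 (0.246%) lower, and 22 of the 97 and 13 of the 47 kept their place.

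Nrgn (chromosome 9, 37544492 to 37552904) ranked first among the higher genes outside the rule, by the lower bound of its ratio. It was found in 57 of 58 SD+RS members, with 0 to 318 UMIs and a median of 44.5, and in 54 of 56 SD members, with 0 to 161 UMIs and a median of 52. Medians were 3 and 2 UMIs in the other neurons, with maxima of 373 and 359, so the ranges overlap. Nrgn summed to 2674 CPM in SD+RS members against 548 CPM in the other neurons, a log2 ratio of 2.29 (2.24 to 2.34). In the SD library it was at 2641 against 490 CPM, a log2 ratio of 2.43 (2.38 to 2.48). Against the other cells of the same clusters the log2 ratios were 0.94 and 1.04.

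The other genes named by the same rule follow. Mef2c was at 240 CPM in SD+RS members against 52.6 CPM in the other neurons, and at 227 against 58.6 CPM in the SD library. Its log2 ratio was 2.19 in the SD+RS library, and within clusters the ratios were 1.69 and 1.41. Arpp21 was found in 43 SD+RS and 42 SD members and had log2 ratios of 2.47 and 2.18, and 1.62 and 1.09 within clusters. Ptk2b, the gene of the calcium-activated tyrosine kinase PYK2, had log2 ratios of 2.20 and 2.48, and 1.59 and 1.49 within clusters. Itpka, the inositol trisphosphate kinase gene of dendritic spines, had 2.42 and 2.22, and 1.69 and 1.49 within clusters. Arpp21, Ptk2b, Mef2c, Itpka, Nwd2 and Rnf207 were the named higher genes that stayed more than 2-fold higher within clusters in both libraries. For Rnf207 this was at log2 ratios of 1.31 and 1.01. These ratios are weighted over the host clusters and did not hold in each. Mef2c and Arpp21 were higher in members of c9, c8 and c25 by more than counting error. In c11 Mef2c was lower in members, with a log2 ratio of −1.21 (−2.03 to −0.49), and that of Arpp21 was 0.21 (−0.17 to 0.56). Rin1, a Ras effector gene, was found in 31.0% of SD+RS and 35.7% of SD members and had log2 ratios of 2.95 and 2.90, and 1.58 and 1.78 within clusters, on 24 and 20 UMIs, under the minimum for the counts above.

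The remaining named higher genes were past 2-fold against all other neurons and closer to the other cells of their clusters. Icam5, the telencephalin adhesion gene, had log2 ratios of 1.91 and 2.03 against all other neurons and 0.57 and 0.83 within clusters. The dendrin gene Ddn had 2.42 and 1.79, and 1.15 and 0.58 within clusters. Myh7, a myosin heavy chain gene best known from heart muscle, had 1.85 and 2.12, and 0.68 and 1.04 within clusters. Sowaha, Cpne5, Fam81a, Cpne8, Kctd4, 2010300C02Rik, Lcorl, Rbm24, Rab40b and Dock10 were higher as well. So were the calcium pump gene Atp2b4, the spine scaffold gene Baiap2, the Ras regulator gene Rasal1 and the diacylglycerol kinase gene Dgkg. Their log2 ratios against all other neurons lay between 1.30 (Dgkg, SD+RS) and 2.14 (Kctd4, SD).

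**Figure D3:**
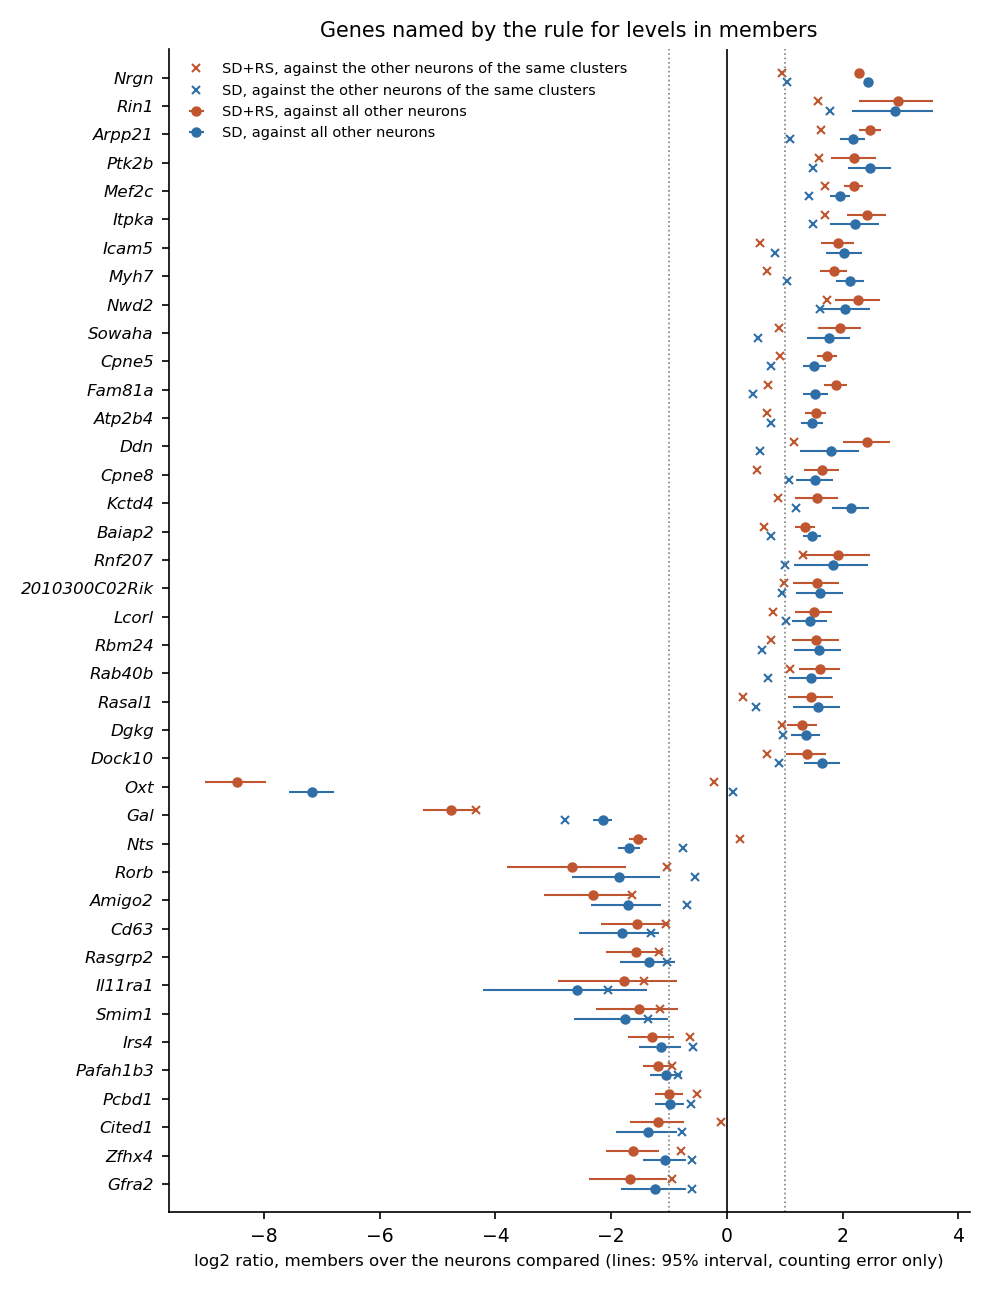
Log2 ratio of members over all other neurons (points, with 95% intervals for counting error) and over the other neurons of the same clusters (crosses) for the 25 higher and 15 lower genes named by rule, SD+RS above SD in each pair; dotted lines mark 2-fold. Nrgn stands at 2.29 in SD+RS and 2.43 in SD and Oxt at −8.46 and −7.16 against all other neurons, and most crosses lie nearer 0 than their points.

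Many neuropeptide genes were low. Of 48 listed, 23 were measured, and 0 were higher and 11 lower by more than 2-fold in both libraries, where 0.637% of all genes were lower, with median log2 ratios of −1.61 in SD+RS and −1.68 in SD. Oxt, the oxytocin gene, was at 23.5 CPM in SD+RS members against 8267 CPM in the other neurons, and at 43.6 against 6234 CPM in the SD library. No member had more than 4 Oxt UMIs, whereas single other neurons had up to 52469. Within the members' clusters Oxt did not differ by much, with log2 ratios of −0.22 and 0.11. Gal stayed lower when weighted over the host clusters, with log2 ratios of −4.34 and −2.80, but not in each cluster. By more than counting error, Gal was lower in members of c9, c11, c19, c6 and c33. In c25 it was higher in members by more than counting error, with a log2 ratio of 1.08. In c8 and c13 the log2 ratios were −0.18 and 0.04, with intervals that hold 0. Over all clusters, Gal was found in 15 SD+RS members, at 31.1 CPM against 845 CPM in the other neurons. It was found in 18 SD members, at 237 CPM against 1045 CPM, and 61.8% of those UMIs came from 1 doublet-marked cell of the astrocyte-gene cluster. Tac2, Cartpt, Nts, Sst, Vip, Cck, Grp, Avp and Gnrh1, the last limited by the rule, were also lower. Sst, the somatostatin gene, had 24.2 and 11.7 CPM in members against 220 and 186 CPM.

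The other 12 measured neuropeptide genes were not past 2-fold in both libraries. Among them was Pnoc, the prepronociceptin gene. Its values were 214 and 225 CPM in SD+RS and SD members and 195 and 184 CPM in the other neurons, and it was found in 36 of 58 and 29 of 56 members. Among the lower genes outside the peptides were the nuclear receptor gene Rorb, the adhesion gene Amigo2, Cd63, Rasgrp2, Il11ra1, Smim1, Irs4, Pafah1b3, Pcbd1, Cited1, Zfhx4 and Gfra2. Their log2 ratios lay between −2.67 (Rorb, SD+RS) and −0.99 (Pcbd1, SD).

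Transcription factor genes of the forebrain were divided. Of the 18 measured genes of a hypothalamic and regional list of 40, 3 were higher and 5 lower. Over all measured genes 1.31% were higher and 0.637% lower. Zic1, Zic2 and Zic4, zinc finger genes of forebrain development, were the higher ones and stayed more than 2-fold higher within clusters. Zic1 was at 205 and 161 CPM in SD+RS and SD members against 69.7 and 79.4 CPM in the other neurons. Zic2 was at 29.5 and 27.2 CPM against 5.39 and 5.79 CPM, and Zic4 at 41.7 and 31.9 against 10.9 and 13.3 CPM. Hmx2, Isl1, Foxp2, Pou3f2 and Hopx were lower, Isl1 at 23.5 and 28.8 CPM against 54.6 and 58.4 CPM. Of the 14 measured genes of a ganglionic eminence list of 27, 2 were higher, Sp9 of the rule among them, and 2 lower. The lower ones were Lhx6 and Lhx8, genes of neurons from the medial ganglionic eminence. Lhx6 had 15.2 and 7.78 CPM in SD+RS and SD members against 32.6 and 32.5 CPM in the other neurons. Klf13, of the same zinc finger family as Sp9, was at 103 and 116 CPM against 45.6 and 55.4 CPM. Against the other neurons of the same clusters, 0 of 6 measured Sp and Klf family genes were past 2-fold. Of the ganglionic eminence list, 1 of 13 measured genes was higher there and 2 lower.

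Receptor and channel genes were set against the share of all measured genes that were higher in members, 1.31%. Of 20 measured among 60 listed peptide and hormone receptor genes, 3 were higher and 0 lower. They were Thrb, a thyroid hormone receptor gene with 56.8 and 42.8 CPM in SD+RS and SD members against 18.2 and 19.1 CPM, and Ramp1 and Ramp3, whose proteins modify the receptors of the calcitonin family. Of 35 measured among 44 listed GABA, glycine and glutamate receptor subunits, Gabra4 and Gria3 were higher and 0 lower. Gabra4 was at 83.3 and 98.9 CPM against 40.1 and 36.9 CPM, and Gria3 at 164 and 190 against 75.9 and 93.7 CPM. Of 39 measured among 54 listed ion channel genes, 1 was higher, the cation channel gene Trpc4, and 0 lower. Of the 10 measured among 45 listed receptors for wake-promoting transmitters and adenosine, 0 were past 2-fold in both libraries in either direction. Among 6 measured markers of striatal projection neurons, Ppp1r1b was the 1 higher gene, at 23.5 and 17.1 CPM against 1.17 and 1.13 CPM, but it was found in only 7 SD+RS and 6 SD members. Against the other neurons of the same clusters, 0.355% of all measured genes were higher. Of the lists, 1 of 20 peptide and hormone receptor genes, 0 of 35 receptor subunits and 0 of 40 channel genes were. So were 1 of 9 receptors for wake-promoting transmitters and adenosine and 1 of 6 striatal markers.

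The families of the rule genes were read as well. Of 18 listed chemokine and chemokine receptor genes, 4 were measured, and none but Cxcl14 was past 2-fold. Ccl27a had 164 and 172 CPM in SD+RS and SD members against 194 and 186 CPM in the other neurons, and Cx3cl1, the fractalkine gene, 164 and 132 CPM against 105 and 112 CPM. Of 3 measured laminin and laminin receptor genes and 5 measured aldehyde dehydrogenases, Lamb3 and Aldh3b2 were the only ones past 2-fold. Both, like Cxcl14, are genes of the rule, so their higher level follows from how members were chosen. Over all measured genes, 1.31% were higher. Markers of cortical and hippocampal interneurons, some of which make Cxcl14, were counted too. Of 11 measured, 0 were higher and 5 lower, where 0.637% of all genes were lower. The 5 were Vip, Cck, Sst, Adarb2 and Lhx6. Against the other neurons of the same clusters, 3 of 9 measured were lower, where 0.246% of all genes were.

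The authors' deposited tables of cluster markers list Cxcl14 in several clusters. In the authors' deposited table for both libraries, Cxcl14 was found in 100% of cluster e1, the Gnrh1 cluster, and in 72.7% of cluster i5, which has Slc1a3 in 100% of its cells. In the same deposited table, cluster i7 has Cxcl14 in 21.8% of its cells, Sp9 in 33.9%, Rprml in 65.9%, Aldh3b2 in 50.1% and Nrgn in 96.8%. The authors' deposited table for the SD library lists all 5 genes of the rule in its cluster 5, with Cxcl14 in 19.6% and Lamb3 in 31.7% of the cells. The authors' deposited table for the SD+RS library lists 4 of them, all but Lamb3, in its cluster 1, with Cxcl14 in 18.2% and Sp9 in 29.1% of the cells.

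Between the libraries, the sum of 14 core immediate early genes, which neurons switch on within minutes of strong activity, was higher in SD+RS members. It was 322 CPM (292 to 354) in SD+RS members and 231 CPM (206 to 259) in SD members, a log2 ratio of 0.48 (0.26 to 0.70). The other neurons had 269 CPM in both libraries and a log2 ratio of 0.00 (−0.02 to 0.03). The SD+RS value rested on 1 cell. A member of cluster c36, which was marked as a doublet and whose cluster has the endothelial genes Cldn5 and Flt1 among its top 10, held 157 of the 425 core UMIs. The next highest SD+RS member had 35, and the highest SD member had 52 of 297. The median was 2 core UMIs per SD+RS member and 3 per SD member. Without the highest member of each library the log2 ratio was 0.10, and without all doublet-marked members it was −0.083.

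Fos (chromosome 12, 85473890 to 85477273), the gene of the transcription factor c-Fos, was found in 11 of 58 SD+RS members and 7 of 56 SD members. It had 69 UMIs in SD+RS, 35 of them in the member of c36, and 23 UMIs in SD, 11 of them in 1 cell. The levels were 52.3 CPM in SD+RS members and 17.9 CPM in SD members, a log2 ratio of 1.55 (0.85 to 2.29). The ratio was 1.48 (0.49 to 2.56) without the highest cell of each library and 0.58 without doublet-marked members. It turned to −0.74 (−2.46 to 0.82) with Cxcl14 of at least 10 UMIs and was 5.75 (3.20 to 11.1) with 3 of the 4 other genes required. The latter choice kept the member of c36 with its 35 Fos UMIs and left out the SD cell with 11, so the ratio rests on few cells. Levels were 56.4 and 58.1 CPM in the other neurons. The share of cells with a Fos UMI was 19.0% of SD+RS members (interval 9.87% to 31.4%) and 12.5% of SD members (5.18% to 24.1%), below the 35.2% and 29.7% of the other neurons at a like depth. Astrocyte-type barcodes had 7.62% and 9.59% at median depths of 3210 and 3587 UMIs. Thinned to 2000 UMIs per cell, with no member left out, the shares were 8.62% and 3.57% in members, 7.68% and 8.02% in the other neurons, and 4.98% and 6.29% in astrocyte-type barcodes. These are from 1 random draw, and the share expected over draws was 5.44% and 3.17% in members and 8.28% and 7.95% in the other neurons. The members' intervals, 2.86% to 19.0% in SD+RS (5 of 58 cells) and 0.435% to 12.3% in SD (2 of 56 cells), hold the values of both other groups, so no difference was detectable at that depth.

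The other core genes followed no common direction. Junb had 111 UMIs in SD+RS members, 35 of them in the member of c36, and 68 in SD members. Its log2 ratio was 0.67 (0.22 to 1.12). Without the highest cell of each library the ratio was 0.47, with an interval from −0.054 to 0.999 that holds 0. Egr1 was close between SD+RS and SD members, with 68 and 84 UMIs. The interval of its log2 ratio ran from −0.83 to 0.13. Egr4, the 1 core gene more than 2-fold higher in members than in other neurons, had 22.0 CPM in SD+RS members and 19.5 CPM in SD members, where the SD other neurons had 3.30 CPM, and a log2 ratio between the libraries of 0.17 (−0.65 to 1.01). Ier2 had 28 UMIs in 4 SD+RS members, 25 of them in the member of c36, and 1 UMI in the SD members. Egr2 had 0 UMIs in either group.

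By host cluster, the core sum in members was 232 CPM in SD+RS and 177 CPM in SD in c9, where the other cells had 250 and 105 CPM. In c11 it was 340 and 345 CPM, against 244 and 484 CPM in the other cells. In c8 it was 338 and 351 CPM, against 268 and 278 CPM. Single members weighed on the sums of c11 and c8. The highest member of c11 held 23 of 48 core UMIs in SD+RS and 52 of 81 in SD. The highest of c8 held 35 of 87 in SD+RS and 18 of 39 in SD. In c25 the core sum in members was 62.6 CPM (28.6 to 119) and 184 CPM (128 to 256), against 96.1 and 125 CPM. In the 14 SD+RS and 15 SD members of all other clusters it was 471 CPM (408 to 542) and 200 CPM (159 to 248). Of the 198 SD+RS UMIs behind that value, 157 came from the doublet of c36. Between the libraries the members' sum thus differed beyond counting error in c25, where SD+RS was lower, and not in c9, c11 or c8. In the remaining clusters together the SD+RS value was higher but rested on that 1 doublet, so no direction is read from it. Fos alone had 27 UMIs in the 12 SD+RS members of c8 (interval 69.1 to 153 CPM) and 2 UMIs in the 6 SD members of c8 (interval 2.18 to 65.0 CPM). These UMIs came from 4 of the 18 members of c8, with 13 in 1 SD+RS member and 10 in another. In the members of c25 Fos had 0 UMIs.

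**Figure D4:**
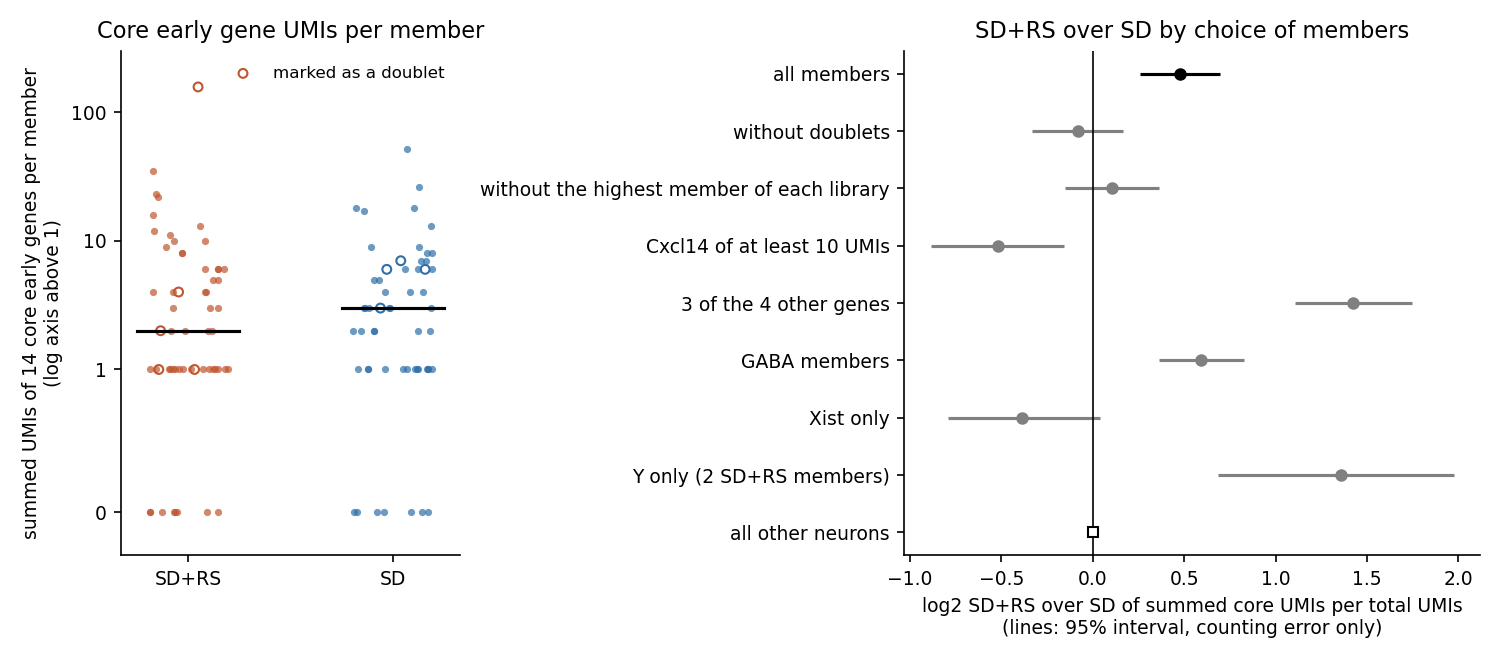
Left: summed UMIs of the 14 core immediate early genes per member (log axis above 1), SD+RS left of SD, with open circles for members marked as doublets and black lines for medians of 2 and 3. Right: log2 SD+RS over SD of that sum with 95% intervals for counting error under different choices of members and in all other neurons; the value is 0.48 for all members, −0.083 without doublets and 1.42 with 3 of the 4 other genes required.

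Across all measured genes, 259 of 7085 (3.66%) were more than 1.5-fold higher in SD+RS members than in SD members and 314 (4.43%) more than 1.5-fold lower. The genes had at least 50 UMIs in the members of both libraries together. Of the same genes, 2 and 29 were past 1.5-fold in the other neurons, whose counts are far larger. The median log2 ratio was 0.00 in the members and −0.01 in the other neurons.

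Of the 12 named genes with the highest ratio, 10 had over 50% of their SD+RS UMIs in 1 member. Slc18a3, Slc5a7 and Slc10a4, genes of cholinergic neurons, had 77, 78 and 62 UMIs in SD+RS members against 0, 4 and 4 in SD members. All SD+RS UMIs of Slc18a3 and Slc5a7 came from 1 SD+RS member of cluster c43, which had 74955 UMIs in all and carried 105 of the 126 UMIs of the synuclein gene Sncg too. Slc18a3 was at least 4.64 higher in SD+RS on the log2 scale when set against a floor of 3 SD counts over the group. The corticotropin-releasing hormone gene Crh had 81 and 9 UMIs, 76 and 9 of them in 1 cell of each library. Ptgds, the gene of an enzyme that makes prostaglandin D2, had 186 UMIs in SD+RS members, 156 of them in 1 cell, and 46 in SD members. Its log2 ratio was 1.98 and turned to −0.46 without the highest cell of each library. Cox6a2, Ifi27 and Itm2a had log2 ratios of 2.80, 3.22 and 2.13.

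Dlk1, an imprinted gene of a membrane-bound signalling protein, was less tied to single cells. It was found in 18 SD+RS members, with 32 of its 229 UMIs in the highest, and in 12 SD members, with 19 of 90 UMIs in the highest. It stood at 173 CPM in SD+RS members and 70.1 CPM in SD members, a log2 ratio of 1.31 (0.95 to 1.68), and of 1.44 without the highest cells. The other neurons had 200 and 226 CPM.

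The 12 named lower genes were all still more than 1.5-fold lower without their highest cells. Lamp5, the gene of a lysosome-associated membrane protein of some GABA neurons, was found in 18 SD+RS members, with 36 UMIs, and in 32 SD members, with 140 UMIs. Its levels were 27.3 CPM in SD+RS members and 109 CPM in SD members, a log2 ratio with an interval from −2.57 to −1.46, and those of the other neurons 46.5 and 54.6 CPM. Among Xist-only members the log2 ratio of Lamp5 was 0.0023, with 9 SD cells. Peg10, an imprinted gene, was at 30.3 and 84.8 CPM, and Otp, the homeobox gene of the glutamate clusters c25 and c19, at 22.0 and 60.7 CPM. Gal and Calcr, the calcitonin receptor gene, had over 50% of their SD UMIs in 1 member, with log2 ratios of −2.93 and −2.15 in all members. C1ql3, Cbln1, Pdp1, Srxn1, Akap5 and Srrm4 had log2 ratios between −1.49 and −1.02, and 5330417C22Rik was lower with 16 UMIs in SD+RS and 44 in SD members.

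**Figure D5:**
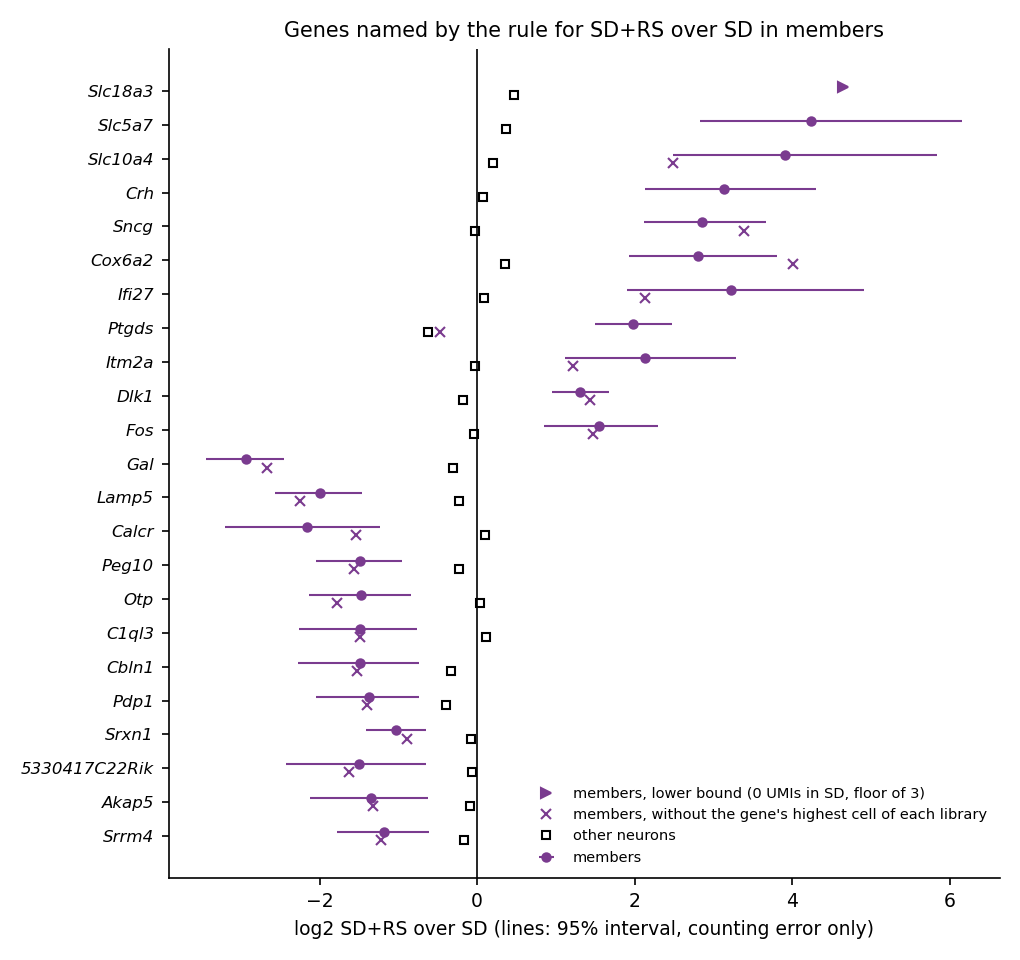
Log2 SD+RS over SD of 11 of the 12 highest and of the 12 lowest genes named by rule in members (filled points with 95% intervals for counting error), in members without each gene's highest cell of each library (crosses), and in other neurons (open squares); the triangle is a lower bound for Slc18a3, with 0 UMIs in SD members. Slc18a3, Slc5a7 and Crh have no cross because no ratio is left, the cross of Ptgds is at −0.46, and the 12 lower genes keep their side of 0.

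Some listed gene groups had ratios near those of the other neurons. Of 3 measured cold-inducible genes, 2 were more than 1.5-fold higher in SD+RS members and 0 lower, where 3.66% of all genes were higher. Cirbp had 258 CPM in SD+RS members and 166 CPM in SD members, a log2 ratio of 0.64 (0.38 to 0.89), against 0.48 in the other neurons. Srsf5, which encodes a splicing factor, had 404 and 242 CPM, a log2 ratio of 0.74 (0.53 to 0.94), against 0.57 in the other neurons. Cirbp was found in 58 of 58 and 53 of 56 members and Srsf5 in all of both, so these ratios did not rest on single cells.

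Of 10 measured clock genes, 5 were more than 1.5-fold lower in SD+RS members and 1 higher, where 4.43% of all genes were lower and 3.66% higher, with a median log2 ratio of −0.50 in members and −0.21 in the other neurons. Bhlhe40, a repressor of the circadian clock, stood at 22.0 CPM in SD+RS members and 43.6 CPM in SD members, a log2 ratio of −0.99 (−1.69 to −0.32), against −0.28 in the other neurons. Tef, a clock output factor, had 72.0 and 111 CPM, and Bhlhe41 56.8 and 88.0 CPM. Per3 and Nr1d2 were lower too, and Cry2 was higher, at 44.7 and 24.9 CPM. Hspa1a, an inducible heat shock gene, had a log2 ratio of −0.91 in members and −0.80 in the other neurons, and it was 1 of 2 lower among 12 measured heat shock genes.

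Of 8 measured receptors for wake-promoting transmitters and adenosine, the histamine receptor genes Hrh1 and Hrh3 were lower in SD+RS members and 0 were higher, and these counts too stand beside 4.43% lower over all genes. Hrh1 was found in 13 SD+RS and 29 SD members, with a log2 ratio of −1.01 (−1.78 to −0.27), and Hrh3 in 20 and 32, with a log2 ratio of −0.91 (−1.61 to −0.25). In the other neurons the log2 ratios were −0.27 and −0.30. Of 17 measured peptide and hormone receptor genes, 5 were lower, among them the progesterone receptor gene Pgr at 16.7 and 40.5 CPM, and 1 was higher. Of 17 measured neuropeptide genes, 9 were lower and 2, Tac2 and Crh, higher, beside the same 4.43% and 3.66% of all genes. Of Tac2, 98.1% of the SD+RS UMIs and 91.1% of the SD UMIs came from 1 member of each library. Of 5 measured astrocyte markers, 3 (Slc1a3, Aldoc and Slc4a4) were lower in SD+RS members, where the other neurons had a median log2 ratio of −0.68 for the list. The part of sex, host cluster and astrocyte RNA in these differences was not tested beyond the values given.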

How the data were processed

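Each library's deposited matrix gives raw UMI counts by gene and cell barcode. Cell Ranger 3.0.2 wrote it, per the file headers, and the build mm10 and Seurat 4.0.4 are named, per the submitters' processing notes. The authors' deposited marker tables give the fraction of cells with a gene, per the file headers, printed here as percentages. Libraries had 8106 (SD+RS) and 10262 (SD) barcodes with 123500649 and 132191585 UMIs. Coordinates are from GENCODE vM21, which held 31011 of 31054 gene identifiers.

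Counts were summed per library over members and over other neurons and scaled to CPM. Intervals are exact (Poisson, Clopper-Pearson, or conditional binomial for ratios), and the ratio code was checked on simulated counts. Zero counts were set at a floor of 3. Neurons of both libraries were clustered with scanpy 1.11.5 (40 components, 20 neighbours, Leiden resolution 1.5, no correction between libraries). Doublets were called per library with Scrublet and kept, marking 297 SD+RS and 580 SD barcodes and 5 SD+RS and 4 SD members. A list gene was counted past 2-fold in both libraries, or past 1.5-fold for SD+RS over SD, with at least 50 UMIs. Named genes were the rule genes, the core early genes, the 25 highest and 15 lowest by the interval bound nearest 0 in at least 30% of members (or of other neurons) of each library, the 12 highest and lowest SD+RS over SD, and the list genes with the most UMIs or past the fold. Sex-linked, mitochondrial and haemoglobin genes and the YFP sequence were left out of the ranking. Alternatives varied the rule, depth, doublets, sex, scaling and minimum. The members and lists were chosen with earlier results of these data known. Some genes among those named by the rule or listed are not reported here.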

Additional observations from a re-analysis of the deposited data

Results flagged for a closer look

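Some genes had SD+RS over SD ratios of opposite sign in members and in other neurons, with both counting intervals clear of 0. The difference was not tested, since each group is 1 library. Ier2, an immediate early gene, had a log2 ratio of 4.77 in members (2.17 to 10.12) and −0.45 in other neurons, with 25 of its 28 SD+RS UMIs in 1 doublet-marked cell. Ptgds had 1.98 in members and −0.62 in other neurons, with 83.9% of its SD+RS UMIs in 1 cell. Dlk1 had 1.31 in members and −0.18 in other neurons, found in 18 SD+RS and 12 SD members. Calcr had −2.15 in members and 0.10 in other neurons, with 55.8% of its SD UMIs in 1 cell. C1ql3, the gene of a synaptic adhesion protein, had −1.49 in members and 0.11 in other neurons, found in 10 SD+RS and 17 SD members.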

How the results depend on the processing

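No paired analysis was possible because each group is 1 library. With Cxcl14 of at least 10 UMIs, the members were 0.603% of SD+RS and 0.688% of SD neurons, the core early gene log2 ratio was −0.52, that of Fos −0.74 and of Ptgds −0.72, and 200 genes were past 1.5-fold lower. With 3 of the 4 other genes required, the shares were 0.747% and 0.790%, the core ratio 1.42, Fos 5.75 (3.20 to 11.1) and Ptgds −0.93. That choice kept the doublet-marked member of c36. Without doublets the core ratio was −0.083 and Fos 0.58. Among Xist-only cells the SD share was 0.665%, the core ratio −0.39, Fos 0.77, Ptgds −1.23, Sncg −6.32, Ifi27 −0.43 and Lamp5 0.0023. There, 53 genes were higher and 22 lower against other neurons, 456 were past 1.5-fold higher between libraries, and the SD members over other neurons had −0.22 for Rnf207 and 0.19 for Nts. Among Y-only cells, with 2 SD+RS members, the shares were 0.235% and 1.92%, the core ratio 1.36, Fos 0.17, Calcr 2.61, Nts over other neurons 1.43 in SD+RS, with 39 genes higher and 23 lower against other neurons and 598 and 982 past 1.5-fold between libraries. GABA members alone were 1.07% of SD neurons, with Ptgds at −0.78. Without the highest member of each library the core ratio was 0.10. With at least 200 UMIs, 27 genes were higher and 14 lower than in other neurons, and 26 and 32 past 1.5-fold between libraries, and with no minimum 3035 and 2742 were. Against neurons of the same clusters, 26 were higher and 18 lower. Leaving each gene's highest cells out (chosen after seeing the data, as were the GABA, cluster and astrocyte-gene alternatives) put Ptgds at −0.46 and kept 234 of the 259 higher and 290 of the 314 lower genes. The causes were not tested, other than that stricter rules leave fewer cells. Of the named values over other neurons, 589 kept within the counting interval, 116 moved out of it and 3 changed sign. Of those between the libraries, 137 kept within it, 41 moved out and 10 changed sign. Members number 58 and 56, so genes under 50 UMIs were not resolved.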

Other observations

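The matrices list a YFP sequence, a fluorescent reporter, although the mice are labelled wild type. Members had 0 YFP UMIs in the SD+RS library and 318 in the SD library, 317 of them in 1 cell that was marked as a doublet, lay in the astrocyte-gene cluster and had 188 Gal UMIs. The other neurons had 2.40 CPM in SD+RS and 49.8 CPM in SD. This cell holds 188 of the 304 Gal UMIs of SD members.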
